A study of Homo sapiens with 8 samples.

Results

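The transcripts described here were the long non-coding RNAs of the expression table whose symbols mark them as LINC transcripts, small nucleolar RNA host genes (SNHG) or microRNA host genes. A symbol had to begin with LINC and a digit, with SNHG and a digit, or with MIR and end in HG, and antisense (AS) and divergent (DT) symbols were left out, so that 118 of 13771 genes were members: 82 LINC, 20 SNHG and 16 microRNA hosts. The rule used names only and no measured value. RNA-seq was performed on MCF10A, a non-tumorigenic human breast epithelial line that the labels call normal, and on MCF10 DCIS.COM (DCIS.COM), a line that models ductal carcinoma in situ. Each line carried either pCDH-HOTAIR, a lentiviral vector expressing the full-length lncRNA HOTAIR, or the empty pCDH vector, with 2 libraries in each of the 4 groups, to ask what HOTAIR changes in normal and pre-invasive breast cells. All cells had been transduced stably and selected with puromycin. Both lines were grown in DMEM/F-12 with horse serum, and the MCF10A medium also held epidermal growth factor, hydrocortisone, insulin and cholera toxin, so cell line and medium cannot be told apart. The sources do not say whether the libraries of a group came from separate cultures or transductions, so p-values measure the spread between these libraries only. In RNA from whole plates, fewer cells with a transcript and less of it per cell cannot be told apart.

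LINC symbols are given to intergenic lncRNAs by position, and most tell nothing about function. SNHG genes carry small nucleolar RNAs (snoRNAs) in their introns: the spliced introns are trimmed into snoRNAs that guide the modification of ribosomal RNA, while the spliced exons are often removed by nonsense-mediated decay, and several SNHG genes start with a 5′ terminal oligopyrimidine (TOP) tract like that of ribosomal protein genes. A microRNA host transcript is the precursor from which Drosha and then Dicer cut mature microRNAs, which recognize target mRNAs mainly through the seed, bases 2 to 8. The reads of this table come from the host transcripts, so that no value below is a level of a mature microRNA.

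By the RefSeq annotation of GRCh38.p14, all 20 SNHG and all 16 microRNA host members held annotated small RNA genes. The mature sequences below show what the host transcripts of the later paragraphs can yield. They were taken from RefSeq, are written 5′ to 3′, and have the seed in capitals. The first 3 share the seed GAGGUAG, although they lie in 3 hosts. A copy of let-7a-5p lies in MIR100HG and another in MIRLET7BHG, let-7b-5p lies in MIRLET7BHG, and miR-4458 lies in MIR4458HG.
hsa-let-7a-5p: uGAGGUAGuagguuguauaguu
hsa-let-7b-5p: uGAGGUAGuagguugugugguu
hsa-miR-4458: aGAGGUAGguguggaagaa
hsa-miR-100-5p: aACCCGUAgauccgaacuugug
hsa-miR-125b-5p: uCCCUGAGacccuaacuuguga
hsa-miR-205-5p: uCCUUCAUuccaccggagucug
hsa-miR-210-3p: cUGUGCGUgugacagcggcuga
hsa-miR-17-5p: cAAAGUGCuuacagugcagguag
hsa-miR-20a-5p: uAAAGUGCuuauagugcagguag
hsa-miR-19a-3p: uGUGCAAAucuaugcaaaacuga
hsa-miR-19b-3p: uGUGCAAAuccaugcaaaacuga
hsa-miR-193b-3p: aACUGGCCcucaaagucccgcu
hsa-miR-365a-3p: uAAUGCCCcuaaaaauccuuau
hsa-miR-22-3p: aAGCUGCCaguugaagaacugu
MIR100HG also holds miR-100-5p and miR-125b-5p, MIR205HG, MIR210HG and MIR22HG hold the microRNA of their name, and MIR193BHG holds miR-193b-3p and miR-365a-3p. MIR17HG holds 2 pairs with a common seed, AAAGUGC in miR-17-5p and miR-20a-5p and GUGCAAA in miR-19a-3p and miR-19b-3p.

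The start sites of the SNHG members were read for the TOP tract, defined here as a C within 2 bases of the annotated start followed by at least 4 C or T. It was found in 7 of 17 SNHG promoters with a RefSeq sequence (41.2%), in 12 of 59 LINC promoters (20.3%), in 2 of 15 host promoters (13.3%) and in 1295 of 10679 promoters of all genes of the table (12.1%). A match is a description of the letters and not a measured start. The following 30-base stretches around the RefSeq start (GRCh38.p14, sense strand of the gene, tract in capitals) show the tracts of SNHG members whose values are given further on.
SNHG4, chr5:139274091-139274120, plus strand: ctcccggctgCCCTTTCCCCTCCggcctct
SNHG5, chr6:85678714-85678743, minus strand: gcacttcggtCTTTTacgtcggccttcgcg
SNHG18, chr5:9546190-9546219, plus strand: gccgcgccgCCTCCTCCTCCTCCTCCTCCC
SNHG19, chr16:2155339-2155368, minus strand: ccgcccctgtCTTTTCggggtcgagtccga
The tract was 13 letters long in SNHG4, 22 in SNHG18, where it was a CCT repeat whose last letter lies past the stretch, 6 in SNHG19 and 5 in SNHG5.

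The deposited values were log2 CPM, a gene's share of the reads of its library, from which whole reads were recovered, 19306864 to 34884841 a library. HOTAIR itself had 45 and 40 reads in MCF10A with the empty vector and 4614 and 4827 with pCDH-HOTAIR, and in DCIS.COM 119 and 140 against 7166 and 6385. Of the marker genes chosen to check the lines, 8 of 8 basal and 5 of 5 general breast epithelial genes were in the table. Of the other lists, 3 of 4 luminal hormone receptor, 1 of 5 leukocyte (CD14), 1 of 4 endothelial (PECAM1) and 0 of 5 fibroblast genes were in the table. With the empty vector, 5 of the 8 basal genes were called lower in DCIS.COM by the test defined below (KRT6A by the most, at a log2 fold change of −6.95) and 2 higher (ITGB4 at 2.15 and TP63 at 0.75), while of the 5 general epithelial genes 4 were called higher and 1 lower. The library DCIS.COM pCDH-empty 1 stood apart. The median absolute log2 difference between the libraries of a group was 0.21 over all genes for the DCIS.COM pCDH-empty pair and 0.06 to 0.08 for the other 3 pairs. Within that pair 31 members (26.3%, beside 14.3% of all genes) differed by over 0.5 log2 units. In the other pairs 6 to 18 members did (5.08% to 15.3%, beside 3.11% to 5.33% of all genes). The members thus varied more than the table in every group. Beside the results that this library moved most, the values without it are given.

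The members differed widely in level. The highest mean CPM was 475 for SNHG29 and 385 for SNHG16, and the median member of the SNHG, host and LINC families had 12.5, 3.31 and 2.29 CPM. CPM is not scaled by length, so these values do not rank the genes by number of molecules. Summed over the 82 LINC members, CPM ran from 432 to 454 in the 4 MCF10A libraries and from 367 to 388 in the 4 DCIS.COM libraries, without overlap. Such a sum weighs the highest members most. The median LINC log2 fold change of DCIS.COM over MCF10A was 0.30 with the empty vector and 0.12 with the HOTAIR vector. The 20 SNHG members summed to 1138 to 1217 in MCF10A and 1198 to 1229 in DCIS.COM, which overlapped. The 16 hosts summed to 98.9 to 107 and 121 to 122 in MCF10A with the empty and HOTAIR vectors, and to 101 to 120 and 137 to 145 in DCIS.COM.

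The cell line comparison was made within each vector, so that the fold changes of its 2 parts shared no libraries. The spread was estimated over all libraries together. DCIS.COM pCDH-empty 1 thus enters the standard errors and p-values of every comparison. A gene was called when limma gave a Benjamini-Hochberg adjusted p under 0.05 over all 13771 genes and the fold change was at least 1.5. With the empty vector, 46.3% of all genes were called between the lines, 22.5% higher and 23.8% lower in DCIS.COM. Of the members, 60 of 118 (50.8%) were called, 30 higher and 30 lower. With the HOTAIR vector, 43.7% of all genes were called, 22.0% higher and 21.7% lower, and 61 members (51.7%), 33 higher and 28 lower. In both vectors with the same direction, 38.4% of all genes and 52 members were called. The share of all members called was thus near the background of the table.

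The 3 families gave different counts. Of the 82 LINC members, 50 were called in each vector (61.0%), 26 higher and 24 lower with the empty vector and 28 higher and 22 lower with the HOTAIR vector. Of the 20 SNHG members, 4 were called with the empty vector (20.0%) and 3 with the HOTAIR vector (15%), fewer than the table's share. Of the 16 hosts, 6 (37.5%) and 8 (50.0%) were called. The median absolute log2 fold change with the empty vector was 0.95 for LINC, 0.23 for SNHG and 0.88 for host members, beside 0.54 for all genes. With the HOTAIR vector it was 0.85, 0.18 and 0.77, beside 0.50. The differences between families were not tested. A gene near 0 in one line is in the table only if it is high enough in the other. Whether this raised the share called among LINC members, at a median of 2.29 CPM, was not tested. All 4 DCIS.COM libraries lay above all 4 MCF10A libraries for 39 members (33.1%, beside 34.6% of all genes) and below them for 34 (28.8%, beside 35.6%). Of these 73 members without overlap, 59 were LINC, 8 SNHG and 6 host transcripts.

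**Figure D1:**
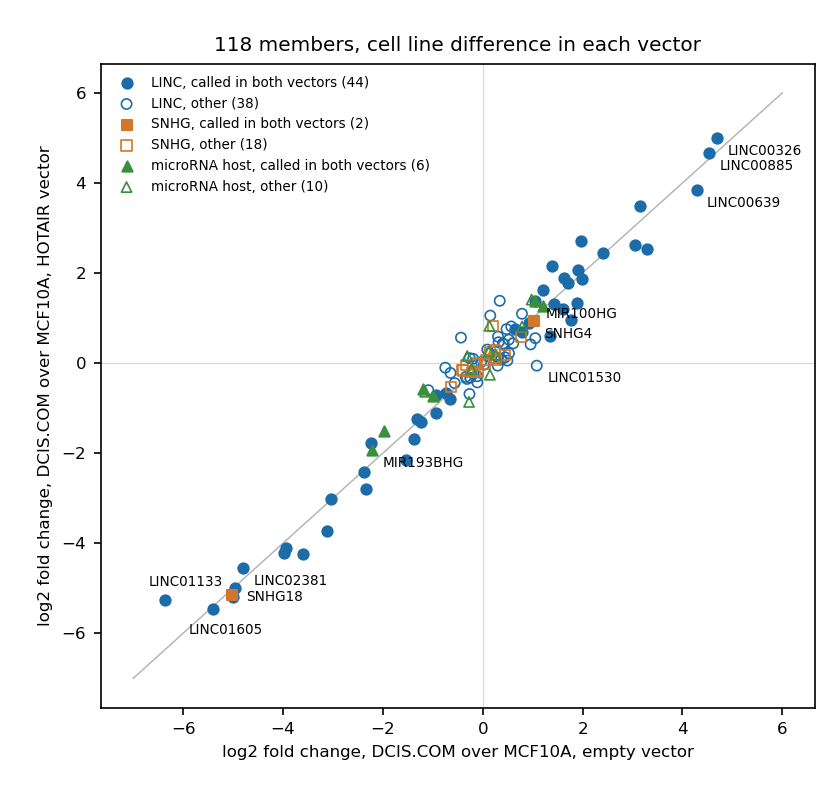
Log2 fold change of DCIS.COM over MCF10A for each of the 118 members with the empty vector (x axis) and with the HOTAIR vector (y axis), on log2 scales, with the line of equal values. Filled symbols mark the 44 LINC, 2 SNHG and 6 microRNA host members called in both vectors, and the SNHG members other than SNHG18 and SNHG4 lie near the centre.

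Among the LINC members lower in DCIS.COM, LINC01133 (GRCh37 chr1:159927825-159954540, plus strand, overlapping no other gene of the table) had the largest fitted difference with the empty vector. It had 31.7 and 29.4 CPM in MCF10A with the empty vector, 31.0 and 39.7 with the HOTAIR vector, 0.266 and 0.336 in DCIS.COM with the empty vector and 0.872 and 0.805 with the HOTAIR vector. All 4 MCF10A libraries were high and all 4 DCIS.COM libraries low, with a log2 fold change of −6.37 ± 0.17 (SE, n = 2 libraries a group; adjusted p = 3.76e-08 by limma) with the empty vector and −5.27 ± 0.17 with the HOTAIR vector. LINC01559 had 44.3 to 52.0 CPM in MCF10A and 1.33 to 1.66 in DCIS.COM, a log2 fold change of −4.95 and −5.00 in the 2 vectors.

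Several members had no read at all in one line. LINC01605 had 2.90 to 3.25 CPM in the MCF10A libraries and 0 reads in all 4 DCIS.COM libraries, at least 55.8-fold lower with the empty vector and at least 70.8-fold lower with the HOTAIR vector when set against 3 reads over the group. LINC00665 had 2.05 to 2.58 CPM in MCF10A and 0 reads in DCIS.COM, at least 42.3-fold and 58.5-fold lower. These bounds cover counting error only. LINC01085 had 0.639 to 1.55 CPM in MCF10A and 1 read in all 4 DCIS.COM libraries together, which lay in a HOTAIR vector library. With the empty vector it was at least 15.7-fold lower, and with the HOTAIR vector the ratio was 105 with an exact 95% binomial counting interval of 18.2 to 4229.

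LINC02381 (chr12:54519803-54541269, plus strand) lies beside the HOXC cluster, 151.1 kb from HOTAIR, and overlaps SMUG1 on the opposite strand. It had 3.69 to 4.65 CPM in the MCF10A libraries and 0.0333, 0.112, 0.113 and 0.119 in the DCIS.COM libraries, which came from 1 to 4 reads each. Its log2 fold change was −4.80 ± 0.28 with the empty vector (−4.40 without DCIS.COM pCDH-empty 1) and −4.56 ± 0.28 with the HOTAIR vector. LINC00707 had 6.5 to 7.31 CPM in MCF10A against 0.253 to 0.532 in DCIS.COM. LINC00842 had 14.1 to 18.2 CPM against 0.816 to 0.970, and it overlaps ANXA8L1 on the same strand, so that its reads may not be its own. For each of these members every MCF10A library lay above every DCIS.COM library, which their choice by large fold change made likely. LINC01116, downstream of the HOXD cluster on chromosome 2 and 515.5 kb from HOXD13, had 16.8 to 18.6 CPM in MCF10A and 1.90 to 2.32 in DCIS.COM, a log2 fold change of −3.03 with the empty vector; it lies outside the rule for the genes named and was chosen after its values were seen.

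Among the LINC members higher in DCIS.COM, LINC00326 (chr6:133275396-133428549, plus strand) had no read in 3 of 4 MCF10A libraries and 1 read in the other. In DCIS.COM it had 1.26 and 2.50 CPM with the empty vector and 2.90 and 2.95 with the HOTAIR vector. It was at least 35.6-fold higher with the empty vector, and the ratio with the HOTAIR vector was 115 (exact 95% counting interval 20.4 to 4566). LINC00885 had 0.192, 0, 0.0516 and 0.10 CPM in MCF10A and 2.98 to 3.83 in DCIS.COM, a log2 fold change of 4.53 ± 0.53 with the empty vector. LINC00639 had 0.0962 to 0.258 CPM against 3.69 to 4.76, a log2 fold change of 4.28 ± 0.32. These transcripts were near the limit of detection in MCF10A and at several CPM in DCIS.COM, and are in the table only through DCIS.COM.

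LINC00160 and LINC01426, 8.6 kb apart on opposite strands of chromosome 21 and 50.6 and 2.9 kb from the low-coordinate end of RUNX1, a transcription factor gene of the mammary epithelium, moved together. LINC00160 had 0.0962 to 0.250 CPM in MCF10A and 1.40 to 2.33 in DCIS.COM, a log2 fold change of 3.28 with the empty vector and 2.52 with the HOTAIR vector. LINC01426 had 0.05 to 0.206 CPM and 0.928 to 1.83 CPM, a log2 fold change of 3.05 and 2.63. RUNX1 itself had 26.7 to 29.0 CPM in MCF10A and 40.4 to 46.6 in DCIS.COM. Its log2 fold change of 0.56 with the empty vector was below the fold threshold, and that of 0.69 with the HOTAIR vector was called. Both LINC members were thus higher by a larger factor than RUNX1 in each vector, which was not tested. LINC00920 had 0.898 to 1.09 CPM in MCF10A and 7.88 to 12.5 in DCIS.COM, LINC00460 had 0.450 to 0.738 and 3.28 to 3.53, and LINC00467 had 2.44 to 3.05 and 10.1 to 11.3. No library of one line overlapped the other for these 3 members, which were also chosen by large fold change.

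**Figure D2:**
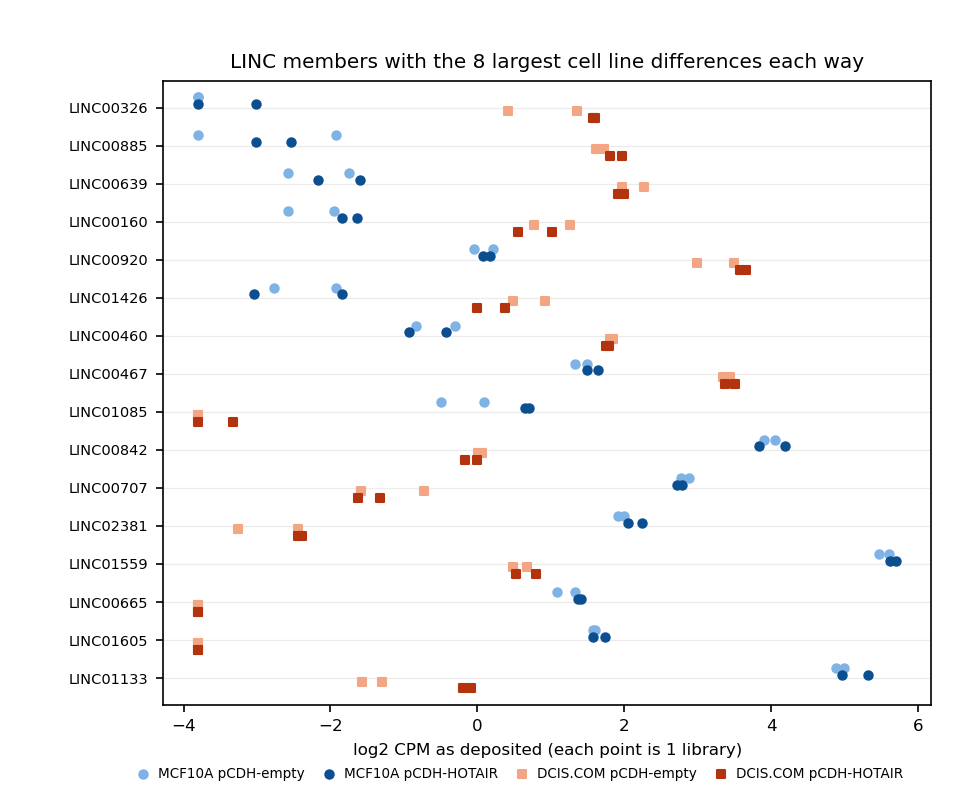
Deposited log2 CPM in each of the 8 libraries for the 8 LINC members with the largest fold change in each direction among those called in both vectors (circles MCF10A, squares DCIS.COM, light empty vector, dark HOTAIR vector). The 2 lines do not overlap for any of the 16 members, which their choice by large fold change made likely. The points at the left edge are libraries with 0 reads.

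Of the 3 LINC members with the highest mean CPM, LINC01559 was among those with the largest difference, as given above, and the other two varied less. LINC00674 had 50.0 to 53.7 CPM in MCF10A and 68.2 to 70.3 in DCIS.COM, without overlap, and its log2 fold change of 0.42 in both vectors (adjusted p = 0.000586 by limma with the empty vector) was below the fold threshold. LINC00673 had 37.7 to 40.7 CPM in MCF10A and 32.8 to 42.6 in DCIS.COM, and overlapped.

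Of the SNHG members, SNHG18 (chr5:9546282-9550837 in GRCh37, plus strand), host of SNORD123, was the one with a large difference between the lines. It had 71, 60, 50 and 47 reads in the MCF10A libraries, which were 2.25 to 2.58 CPM, and 0 reads in all 4 DCIS.COM libraries. It was at least 43.0-fold lower with the empty vector and at least 56.8-fold lower with the HOTAIR vector. With no DCIS.COM reads, SNHG18 is in the table only through its MCF10A libraries. SNHG4, host of SNORA74A, had 3.15 to 3.61 CPM in MCF10A and 5.99 to 7.24 in DCIS.COM, a log2 fold change of 1.02 ± 0.14 and 0.94 ± 0.14, both called, with the lines apart. It overlaps MATR3 on the same strand.

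3 further SNHG members were called in 1 vector each. SNHG20, host of SCARNA16, had 2.90 to 3.41 CPM in MCF10A and 4.50 to 5.56 in DCIS.COM, a log2 fold change of 0.77 (adjusted p = 0.0013 by limma) with the empty vector and 0.58 (adjusted p = 0.00587), just under the fold threshold, with the HOTAIR vector. SNHG19, host of SNORD60, had 6.54 to 7.10 CPM in MCF10A and 3.53 to 5.45 in DCIS.COM. Its log2 fold change of −0.63 ± 0.20 with the empty vector was called, but was −0.32 (adjusted p = 0.0706 by limma) without DCIS.COM pCDH-empty 1, its lowest library. SNHG9, host of SNORA78, was called with the HOTAIR vector (0.81 ± 0.28, adjusted p = 0.0326 by limma), where its libraries had 1.65 and 1.90 CPM in MCF10A and 3.38 and 2.98 in DCIS.COM. That call was lost when any one of these 4 libraries was left out, at adjusted p from 0.0762 to 0.142. With the empty vector SNHG9 was at 0.20 and not called, and at 0.64 and called without DCIS.COM pCDH-empty 1.

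The highest SNHG members stayed within a narrow range. SNHG29 had 480 to 519 CPM in MCF10A and 433 to 457 in DCIS.COM, without overlap, at a log2 fold change of −0.17 and −0.18. SNHG16 had 332 to 356 CPM in MCF10A and 389 to 498 in DCIS.COM, also without overlap, at 0.45 and 0.17, the highest value being DCIS.COM pCDH-empty 1. SNHG5 had 77.1 to 81.5 CPM and 70.0 to 78.7 CPM and overlapped. None of the 3 passed the fold threshold.

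The 20 SNHG members held 46 annotated small RNA genes, of which 23 had a row of their own in the table. They lie inside their hosts, so that such rows can also hold reads of the host RNA, and the share of those reads was not tested. With the empty vector, 5 of the 23 were called, all higher in DCIS.COM (21.7%, beside 22.5% of all genes called higher), and with the HOTAIR vector 6, all higher (26.1%, beside 22.0%), shares near those of the table. A single one was called with the empty vector (SCARNA16 at 0.65) without DCIS.COM pCDH-empty 1. Their median log2 fold change was 0.22 and 0.30, while that of the 20 hosts was −0.02 and −0.01. Without DCIS.COM pCDH-empty 1 the empty-vector medians were 0.27 for the small RNA genes and 0.17 for the hosts. SNORA74A, inside SNHG4, was higher by 1.18 (0.94 and not called without that library) and 2.36, and SCARNA16, inside SNHG20, by 0.89 and 1.66, in the direction of their hosts. SNORD60, inside SNHG19, was higher by 1.39 with the empty vector (adjusted p = 0.0199 by limma, and 1.15 without DCIS.COM pCDH-empty 1), the opposite direction to its host. With the HOTAIR vector SNORD60 was at 0.30 and not called, and its 8 libraries held 0.225 to 1.40 CPM. SNORD25, inside SNHG1, was higher by 0.72 (0.47 and not called without that library) and 0.62, while SNHG1 at 0.24 (0.48 without it) and 0.29 was not called. Whether host and small RNA rows moved apart was not tested.

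**Figure D3:**
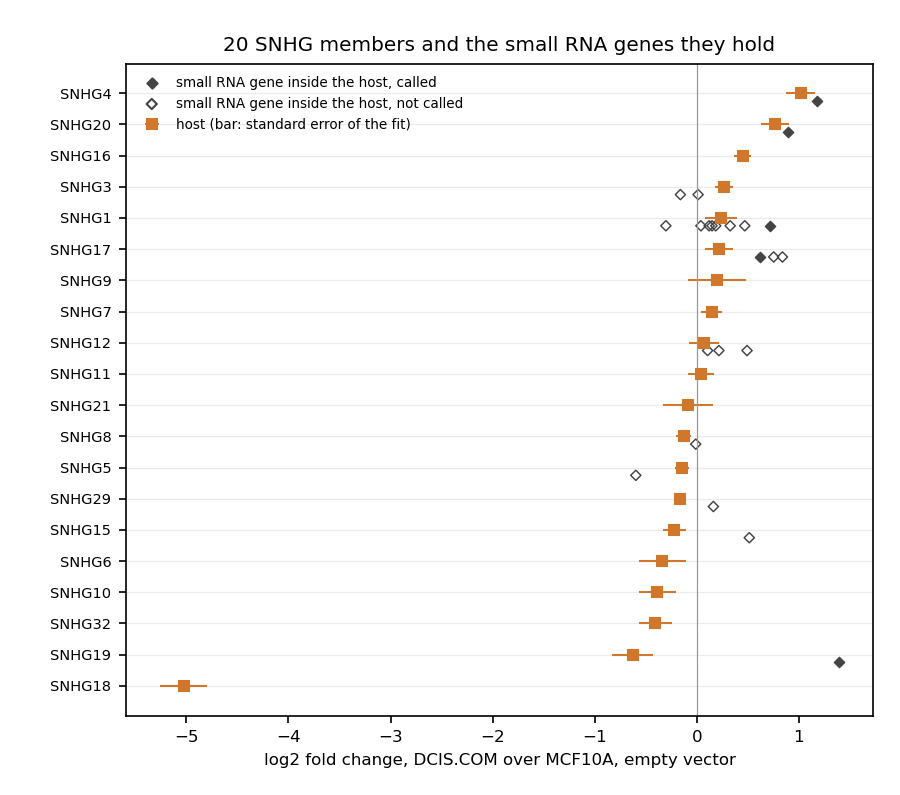
Log2 fold change of DCIS.COM over MCF10A with the empty vector for the 20 SNHG members (squares, bars are standard errors of the fit) and, beneath each host, the small RNA genes inside it that the table lists (diamonds, filled when called). 19 of the 20 hosts lie between −1 and 1.1, SNHG18 lies near −5, and the 5 called small RNA genes all lie to the right of 0, of which 1 is called without DCIS.COM pCDH-empty 1.

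Of the microRNA hosts, 2 were higher and 4 lower in DCIS.COM in both vectors. MIR100HG (chr11:121899033-122427429, minus strand), precursor of let-7a-2, miR-100 and miR-125b-1, had the highest CPM of the hosts in DCIS.COM. It had 17.8 to 20.9 CPM in the 4 MCF10A libraries, 36.4 and 44 in DCIS.COM with the empty vector and 50.4 and 50.0 with the HOTAIR vector. Its log2 fold change was 1.04 ± 0.12 (adjusted p = 8.64e-05 by limma) and 1.38 ± 0.12, with the lines apart. MIR600HG had 1.05 to 1.39 CPM in MCF10A and 2.66 to 3.66 in DCIS.COM, a log2 fold change of 1.20 and 1.26, and it overlaps STRBP on the same strand. The other hosts of the let-7 seed printed above did not pass the test: MIRLET7BHG had log2 fold changes of 0.14 and −0.26, and MIR4458HG −0.31 and 0.16.

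Among the hosts lower in DCIS.COM, MIR193BHG (chr16:14395246-14424924, plus strand) had 1.64 to 1.96 CPM in MCF10A and 0.298 to 0.450 in DCIS.COM, a log2 fold change of −2.21 ± 0.19 with the empty vector and −1.93 ± 0.19 with the HOTAIR vector. MIR3936HG had 1.5 to 1.80 CPM and 0.373 to 0.563 CPM, a log2 fold change of −1.98 and −1.52. MIR22HG, host of miR-22, had 16.2 to 18.5 CPM in MCF10A and 7.12, 10.2, 11.4 and 10.8 in DCIS.COM, a log2 fold change of −1.0 (−0.74 without DCIS.COM pCDH-empty 1) and −0.73. In all 3 the lines did not overlap. MIR210HG (chr11:565657-568457, minus strand), host of the hypoxia-induced miR-210, had 9.04 and 9.85 CPM in MCF10A and 3.26 and 5.07 in DCIS.COM with the empty vector, a log2 fold change of −1.20 ± 0.21 (adjusted p = 0.00117 by limma), and −0.89 without DCIS.COM pCDH-empty 1. With the HOTAIR vector the values were 12.6 and 11.5 CPM against 9.0 and 7.09 CPM, and the log2 fold change of −0.59 ± 0.21 (adjusted p = 0.0375 by limma) lay at the fold threshold, so that it was not called under 9 of the other settings tried.

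The other hosts were called in 1 vector or in neither. MIR1915HG at −0.86 and MIR3945HG at 1.41 were called with the HOTAIR vector only, and both calls were lost when single libraries of that comparison were left out. MIR17HG (chr13:91999940-92049846, plus strand), the host of the miR-17-92 cluster known to promote proliferation, had 4.65 and 3.61 CPM in MCF10A with the empty vector, 5.73 and 5.65 with the HOTAIR vector, 0.931 and 3.43 in DCIS.COM with the empty vector and 3.46 and 3.81 with the HOTAIR vector. It was not called at −1.15 (adjusted p = 0.0629 by limma) with the empty vector, and without the low DCIS.COM pCDH-empty 1 library its log2 fold change was −0.25. MIR205HG, MIR31HG, MIR23AHG, MIR924HG, MIR4453HG, MIR4458HG and MIRLET7BHG were called in neither vector, although MIR4453HG was called at 1.16 with the empty vector without DCIS.COM pCDH-empty 1.

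**Figure D4:**
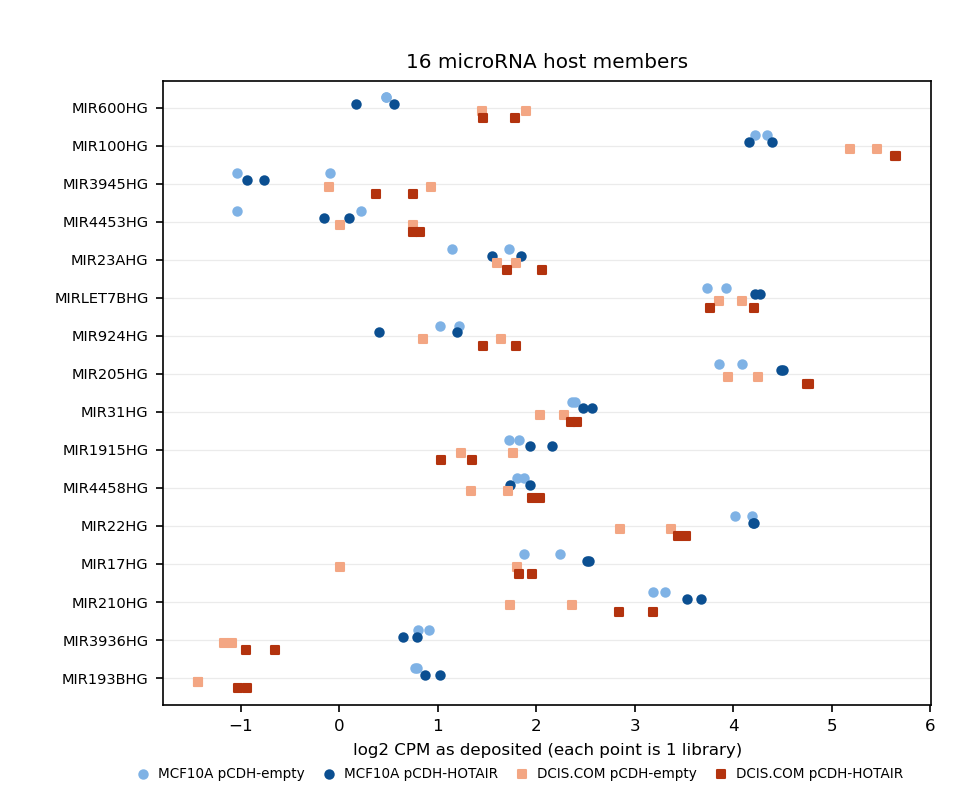
Deposited log2 CPM of the 16 microRNA host members in each of the 8 libraries (circles MCF10A, squares DCIS.COM, light empty vector, dark HOTAIR vector), ordered by the cell line difference with the empty vector. The lines are apart at the top for MIR600HG and MIR100HG and at the bottom for MIR193BHG, MIR3936HG, MIR210HG and MIR22HG, and MIR17HG has a single low library, DCIS.COM pCDH-empty 1.

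HOTAIR is a lncRNA of the HOXC cluster that binds chromatin-modifying complexes, and its overexpression was compared with the empty vector within each line. In MCF10A, 0 of 118 members were called by limma, and 0.0218% of all genes (3 genes, HOTAIR among them). At an unadjusted p under 0.05 there were 6 members (5.08%), beside 7.28% of all genes. In DCIS.COM, 0 members were called by limma, beside 0.0871% of all genes, and 18 members (15.3%) had an unadjusted p under 0.05, beside 17.5% of all genes. limma-voom on the recovered reads also called 0 members in each line. With edgeR, the paper reported more differentially expressed genes in each line than limma called here. A count of 0 members therefore does not show that HOTAIR left them unchanged. The 18 members were 12 LINC, 1 SNHG and 5 host transcripts. The fold changes of the 2 HOTAIR comparisons share no libraries with each other, but share theirs with the cell line comparisons above. The estimate of the spread is common to all of them.

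The DCIS.COM comparison depended on the empty-vector library used. Without DCIS.COM pCDH-empty 1, 1 member was called (0.847%), beside 60 of all genes (0.436%). Without DCIS.COM pCDH-empty 2, so that pCDH-empty 1 alone stood for the control, 22 members were called (18.6%), beside 1403 of all genes (10.2%). In such fits the lone library is assumed to vary like those of the other groups.

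LINC01133 was the member with the smallest p in DCIS.COM. Its 8 and 9 reads with the empty vector and 31 and 27 with the HOTAIR vector did not overlap, and the log2 fold change was 1.29 ± 0.17 (unadjusted p = 5.9e-05, adjusted p = 0.0561 by limma). Without DCIS.COM pCDH-empty 1 it was 1.16 (adjusted p = 0.0227 by limma) and was called, as it also was without pCDH-empty 2, when genes with a mean CPM under 2 were left out, and with median centring. Even with HOTAIR its DCIS.COM level stayed far below that of MCF10A, where the log2 fold change for HOTAIR was 0.20 ± 0.17. Over all alternatives its adjusted p in DCIS.COM ran from 0.000426 to 0.669.

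MIR205HG (chr1:209602162-209606193, plus strand), host of miR-205, a microRNA typical of basal breast epithelium, was higher with HOTAIR in every library of both lines. Its values were 17 and 14.4 CPM against 22.4 and 22.7 in MCF10A, and 15.4 and 19.0 against 26.8 and 27.3 in DCIS.COM. The log2 fold change was 0.53 ± 0.12 in MCF10A (unadjusted p = 0.0025, adjusted p = 0.311 by limma) and 0.66 ± 0.12 in DCIS.COM (unadjusted p = 0.00063, adjusted p = 0.124). Neither passed the correction. Without DCIS.COM pCDH-empty 1 the DCIS.COM value was 0.51 (adjusted p = 0.0544 by limma). The row for MIR205 itself, inside this host, held 0.451 to 0.706 CPM in MCF10A and 0.632 and 0.970 against 1.58 and 1.13 CPM in DCIS.COM.

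MIR210HG had 9.04 and 9.85 CPM against 12.6 and 11.5 in MCF10A and 3.26 and 5.07 against 9.0 and 7.09 in DCIS.COM, again without overlap. The log2 fold change was 0.35 ± 0.21 in MCF10A (adjusted p = 0.826 by limma) and 0.96 ± 0.21 in DCIS.COM (adjusted p = 0.161), and 0.65 in DCIS.COM without pCDH-empty 1 (adjusted p = 0.107). LINC00623 had 4.19 and 5.04 CPM against 7.06 and 7.36 in DCIS.COM, a log2 fold change of 0.64 ± 0.14 (adjusted p = 0.17 by limma), and 0.51 without pCDH-empty 1, while in MCF10A it was −0.01. LINC01530 (chr19:52095701-52097649, minus strand, opposite ZNF175) had 6.92 and 2.39 CPM against 1.80 and 1.91, so that 1 empty-vector library carried its log2 fold change of −1.11 ± 0.41, which was −0.35 without it. LINC01133, MIR205HG, MIR210HG, LINC00623 and LINC01530 are in a list of differentially expressed genes that the study chose on these samples, so their direction there is no independent evidence. LINC00649 had 1.53 and 1.64 CPM against 1.04 and 0.685, a log2 fold change of −0.85 ± 0.26 (adjusted p = 0.229 by limma), and −0.90 without pCDH-empty 1.

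The hosts as a group lay to one side in DCIS.COM. Their median log2 fold change for HOTAIR was 0.35, and 14 of 16 were above 0, beside a median of 0.01 and 52.0% above 0 for all genes. Without DCIS.COM pCDH-empty 1 the median was 0.12 with 13 of 16 above 0, and over all alternatives it ran from 0.12 to 0.45. MIR17HG shows the weight of that library: its log2 fold change was 0.98 ± 0.48 with it and 0.08 without it. MIR100HG was at 0.33 (unadjusted p = 0.023) and 0.19 without it, and MIR4458HG at 0.47 (unadjusted p = 0.023) and 0.28. MIR193BHG was at 0.45 with and without it. In MCF10A the hosts had a median of 0.15 with 10 of 16 above 0, beside −0.01 for all genes. The medians of the LINC and SNHG members were 0.04 and 0.07 in MCF10A and 0.02 and 0.05 in DCIS.COM, and that of the SNHG members in DCIS.COM was −0.08 without pCDH-empty 1.

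**Figure D5:**
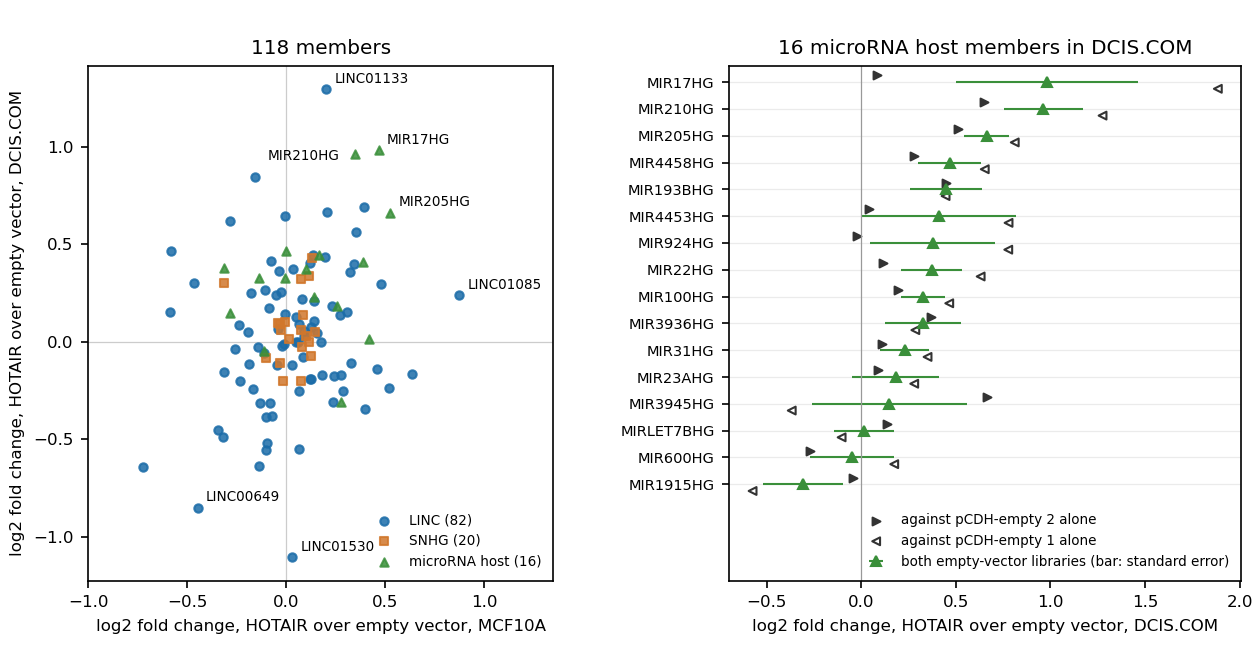
Left, log2 fold change of HOTAIR over the empty vector for the 118 members in MCF10A (x axis) and DCIS.COM (y axis); right, the same in DCIS.COM for the 16 hosts against both empty-vector libraries (triangles, bars are standard errors) and against each of these libraries alone. The hosts lie mostly above 0 on the y axis, and for MIR17HG the 2 empty-vector libraries give values near 0.08 and near 1.9.

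Both HOTAIR libraries lay above both empty-vector libraries in each line for 10 members, beside 6.09% of all genes, and below them in each line for 2, beside 6.08%. The 10 were 6 hosts (MIR17HG, MIR193BHG, MIR205HG, MIR210HG, MIR22HG and MIR31HG), LINC00997, LINC00999, LINC02381 and SNHG29, and the 2 were LINC00649 and LINC02897. Most of these differences were small: MIR31HG, host of miR-31, had 5.20 and 5.07 CPM against 5.83 and 5.50 in MCF10A and 4.02 and 4.78 against 5.26 and 5.04 in DCIS.COM. SNHG29 was higher by 0.07 and 0.06 on the log2 scale. None of the 12 was called in either line.

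In MCF10A, the members with the smallest p after MIR205HG were LINC01085, MIRLET7BHG, LINC00923 and LINC01347. LINC01085 had 0.994 and 0.639 CPM against 1.5 and 1.55, a log2 fold change of 0.87 ± 0.32 (adjusted p = 0.585 by limma). MIRLET7BHG had 15.1 and 13.3 CPM against 18.5 and 19.3, a log2 fold change of 0.42 ± 0.16 (adjusted p = 0.601), while in DCIS.COM it was 0.01. LINC00923 was at 0.64 and LINC01347 at 0.33. The libraries did not overlap for any of these 4, and no adjusted p was under 0.5.

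Members near HOX clusters, whose HOXD genes are known HOTAIR targets, were not called between the vectors. No HOXD gene was among the genes tested, so these targets could not be read. LINC01116, 420.5 kb from HOXD1, was at 0.07 ± 0.13 in MCF10A and 0.09 ± 0.13 in DCIS.COM, the latter 0.20 without pCDH-empty 1. LINC02381, beside HOXC, was at 0.19 ± 0.28 and 0.43 ± 0.28, the latter from 1 and 3 reads against 4 and 4, and 0.03 without pCDH-empty 1, the library with 1 read.

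Whether HOTAIR had a different effect in the 2 lines was tested by the interaction. By limma 0 members were called at an adjusted p under 0.05, beside 0.0436% of all genes (6 genes), limma-voom called 0 as well, and 10 members (8.47%) had an unadjusted p under 0.05, beside 10.5% of all genes. The 5 smallest were LINC01133 (1.09 ± 0.24, adjusted p = 0.262 by limma), LINC00623 (0.65, adjusted p = 0.416), LINC00938 (0.90), LINC01547 (−0.54) and LINC01465 (0.77), where a positive value means a higher ratio of HOTAIR to empty vector in DCIS.COM. LINC00938 had 2.69 and 2.48 CPM against 2.12 and 2.10 in MCF10A and 2.26 and 3.66 against 4.45 and 4.47 in DCIS.COM. For MIR205HG the interaction was 0.14 ± 0.17. Without DCIS.COM pCDH-empty 1 the 5 values were 0.96, 0.52, 0.57, −0.42 and 0.56, and 0 members were called. Without pCDH-empty 2, 19 members were called (16.1%), beside 32.1% of all genes.

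The genes that process these transcripts were counted from 3 lists. Of 19 genes of the small nucleolar ribonucleoproteins, all in the table, 5 were called higher and 1 lower in DCIS.COM with the empty vector (31.6% called, beside 46.3% of all genes), and 2 higher and 0 lower with the HOTAIR vector (10.5%, beside 43.7%). The empty-vector counts were 2 higher and 0 lower without DCIS.COM pCDH-empty 1. FBL, the box C/D methyltransferase, had 64.3 to 73.8 CPM in MCF10A and 139 to 169 in DCIS.COM, a log2 fold change of 1.29 and 0.97. RUVBL1, which acts in the assembly of these particles, was higher by 0.73 and 0.61. GAR1, of the H/ACA particles, was the one called lower, with 8.10 to 8.67 CPM in 3 DCIS.COM libraries and 2.73 in DCIS.COM pCDH-empty 1, and its log2 fold change of −1.21 was −0.44 and not called without that library.

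Of 25 genes of nonsense-mediated decay and the exosome, all in the table, 5 were called higher and 1 lower with the empty vector. With the HOTAIR vector 6 were called higher and 0 lower. The share called was 24% in each vector, below the 46.3% and 43.7% of all genes. When DCIS.COM pCDH-empty 1 was left out, 6 were called higher and 0 lower with the empty vector. SMG9, a regulator of the SMG1 kinase, had 13.9 to 17.7 CPM in MCF10A and 36.8 to 42.2 in DCIS.COM, a log2 fold change of 1.46 and 1.21, and EXOSC10, the nuclear exosome nuclease that trims snoRNAs, was higher by 1.06 and 0.89. Of 20 genes of microRNA processing, 18 were in the table. With the empty vector 2 were called higher (TNRC6C and SRRT) and 2 lower (AGO4 and PRKRA), 22.2% in all, beside 46.3% of all genes. With the HOTAIR vector 1 was called higher and 0 lower (5.56%, beside 43.7% of all genes). The call of SRRT was lost without DCIS.COM pCDH-empty 1. TNRC6C, a partner of Argonaute proteins, had 1.99 to 3.50 CPM in MCF10A and 16.8 to 20.7 in DCIS.COM, a log2 fold change of 3.07 and 2.54. For HOTAIR in DCIS.COM the median log2 fold change of the 3 lists was −0.10, −0.08 and −0.18, beside 0.01 for all genes. In the lists 7 of 19, 9 of 25 and 5 of 18 genes were above 0. The medians were −0.09, −0.07 and −0.08 without pCDH-empty 1. No gene of the 3 lists was called in a HOTAIR comparison by limma. In DCIS.COM 6, 4 and 8 of the listed genes had an unadjusted p under 0.05 (31.6%, 16% and 44.4%, beside 17.5% of all genes). Without pCDH-empty 1 these were 5, 4 and 4 (26.3%, 16% and 22.2%, beside 15.1% of all genes).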

How the data were processed

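RNA from subconfluent plates (RNeasy) was made into ScriptSeq v2 libraries and sequenced as paired ends of 76 nt on a HiSeq2000. The authors aligned reads to hg19 with Rsubread, counted UCSC known genes with featureCounts and deposited log2 CPM made with edgeR, per the paper's methods. Strand setting and the treatment of overlapping genes are not given in the sources used here, so the 31 members that overlap another gene of the table are uncertain. All 13771 genes, members included, had a CPM over 0.5 in at least 2 libraries.

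From the deposited log2 values, whole reads were recovered for 100% of values (tolerance 0.1 read), and CPM without the prior count was computed from them. Fold changes are differences of the deposited log2 CPM, whose prior count of 0.0717 CPM understates the change of low genes. limma 3.58.1 in R 4.3.3 (4 group means, mean-variance trend) was fitted to all genes, p-values were adjusted by Benjamini-Hochberg over all genes, and errors are standard errors. The fit and the recovery were tested on simulated data. An exact permutation of 2 against 2 libraries cannot give a two-sided p below 0.333, so none was used for single values. A group with 0 reads was set to 3 reads for a bound. Intervals cover counting error only.

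The members and lists were chosen with earlier results of these data known. Genes were named by a rule: all hosts, the 8 LINC members with the largest fold change each way, all SNHG members called between lines, the 5 smallest p-values of each HOTAIR comparison and of the interaction, the 3 highest members of each family by CPM (the table holds no gene length, so CPM per kilobase could not be used), the members in the study's list, and at most 4 called genes of each other list. Positions are from GENCODE 44 on GRCh37, which placed 111 members, and sequences from RefSeq on GRCh38.p14. GENCODE labels LINC00672 and LINC00999 protein-coding genes, and LINC00674, LINC01085, LINC01881 and LINC02210 transcribed pseudogenes. Alternatives changed the pseudocount (0.1 and 1 CPM), the filter (mean CPM of at least 2), centring, normalization, model, replicate block, fold threshold and each library in turn.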

Additional observations from a re-analysis of the deposited data

How the results depend on the processing

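Between the cell lines, 60 members were called with the empty vector and 61 with the HOTAIR vector, beside 46.3% and 43.7% of all genes. The count of all genes called also changed between alternatives in every comparison. The member counts below therefore do not show a shift particular to the members. The count of members called stayed within 1.5 times under most alternatives. It was 32 in each vector when a log2 fold change of at least 1.5 was required, and with that threshold 29 members were called in both vectors, against 52. With a mean CPM of at least 2, which leaves 79 members, it was 40 with the empty vector, 37 with the HOTAIR vector and 33 in both vectors. Restricted to the 87 members that overlap no other gene of the table, an alternative chosen after seeing the data, it was 47 and 48. Leaving out 1 library at a time gave 57 to 72 with the empty vector, 51 to 64 with the HOTAIR vector, and 47 to 55 in both. For HOTAIR in DCIS.COM, 1 member was called with a mean CPM of at least 2 and 1 with median centring, and leaving out 1 library gave 0 to 22. For the interaction this gave 0 to 19, and for HOTAIR in MCF10A 0 throughout. SNHG9 with the empty vector turned from 0.20 to −0.24 on the log2 scale without DCIS.COM pCDH-empty 2 (0.64 without pCDH-empty 1). Of the other values for single members, 24 lost and 22 gained their call under an alternative. In the comparisons within a vector or a line, the deviations of same-numbered libraries were hardly correlated (−0.016, −0.0032, 0.066 and −0.0089 over 13771 genes). Whether same-numbered libraries shared a culture or a batch was not tested. With the replicate block, 61 members were called in each vector, and 0 for HOTAIR in either line and for the interaction. The cause of these shifts was not tested, except that fewer genes or samples enter some of the fits. The planned quasi-likelihood test on counts was not run, although whole reads were recovered, and limma-voom was run on those reads instead. Depth limits the members with few reads, such as LINC01133 in DCIS.COM with 8 to 31 reads a library.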
